A study of Mus musculus with 6 samples.

Results

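Nr2f1 and Nr2f2 encode the orphan nuclear receptors COUP-TFI and COUP-TFII, and B130024G19Rik is a noncoding transcript that starts inside Nr2f2 and runs in the opposite direction. These 3 genes were looked up as target genes in the enhancer predictions of oligodendrocyte precursor cells (OPCs) with and without IFN-γ. Nr2f1 was listed in both tables, B130024G19Rik in the table of Ctr-OPCs alone, and Nr2f2 in neither. Thus 2 of the 3 genes were listed among 25779 target genes in Ctr-OPCs, with 16 of 66637 element-gene pairs, and 1 of them among 26591 target genes in IFN-γ-OPCs, with 8 of 71478 pairs. The genes were chosen from measured values of these same tables, among them the number of connections of B130024G19Rik, so that number is given as a description and supports nothing.

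The cells were cultured primary OPCs from the brains of mice carrying Sox10-Cre/RCE, an allele pair that labels Sox10-expressing oligodendroglia with a fluorescent reporter. The strain is labelled C57BL/6j, while the study's methods give that background for the Cre line and a mixed one of C57BL/6 and CD1 for the reporter line. Per these methods the cells came from pups in the days after birth, several brains were pooled, and OPCs were selected either by the reporter or by CD140a, so a minority of other brain cells can remain. All cultures grew in proliferation medium with bFGF and mPDGF-AA, and from 24 h after passaging received either no addition (Ctr-OPCs) or 100 ng/mL of IFN-γ in it (IFN-γ-OPCs). The treatment time stands in the study's methods for its primary OPC cultures and not in the labels of these libraries. H3K27ac HiChIP, which captures chromatin contacts of regions carrying this histone mark of active enhancers and promoters, was made for 3 libraries per condition, and 1 pooled prediction table per condition was used here.

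In the activity-by-contact (ABC) model, each element has an activity, in signal units from ATAC-seq and H3K27ac coverage, and a contact with the start site of each gene, taken from 5 kb bins of the HiChIP map. The ABC score is the product of both for an element, as a share of the sum over all elements of the gene, here called the gene total. A pair with a score above 0.05 is called a connection. The tables begin at a score of 0.02, hold no element at a gene's own promoter, and name no target whose promoter activity quantile is under 0.4. With 1 pooled table per condition there was no replicate error, no value was tested between conditions, and the read depth behind each value is unknown. All differences below describe these 2 tables.

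COUP-TF receptors bind direct repeats of the nuclear receptor hexamer, mostly recruit corepressors, and can also activate genes. COUP-TFII is known for venous and lymphatic identity and for the migration of cortical interneurons, and COUP-TFI for patterning of the cortex and for the timing at which neural progenitors turn to glia. Each of the 2 genes has a noncoding neighbour that starts within it on the other strand.

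Both loci have the same arrangement (GRCm38, GENCODE M21 gene models). Nr2f2 lies on the minus strand at chr7:70351944-70366735. B130024G19Rik, on the plus strand at chr7:70364910-70489972, overlaps its 5′ end by 1826 bp. Nr2f1 lies on the minus strand at chr13:78188973-78199757, and the antisense gene A830082K12Rik, at chr13:78198017-78279391, overlaps it by 1741 bp. The start sites of receptor and antisense gene are 1825 bp apart at Nr2f2 and 1740 bp apart at Nr2f1. One difference concerns the bins: the starts of Nr2f1 and A830082K12Rik fall in the same 5 kb bin and so receive the same contacts, whereas those of Nr2f2 and B130024G19Rik fall in neighbouring bins.

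Shown first are the middle 300 bases of 4 elements, since the results below turn on them: the most active element inside Nr2f2, the element 3′ of Nr2f2 that had the lowest activity ratio between the conditions, and the elements with the highest scores for Nr2f1. The sequences are the plus strand of GRCm38 from RefSeq, and capitals mark CpG dinucleotides.
Nr2f2 intron, chr7:70361750-70362049: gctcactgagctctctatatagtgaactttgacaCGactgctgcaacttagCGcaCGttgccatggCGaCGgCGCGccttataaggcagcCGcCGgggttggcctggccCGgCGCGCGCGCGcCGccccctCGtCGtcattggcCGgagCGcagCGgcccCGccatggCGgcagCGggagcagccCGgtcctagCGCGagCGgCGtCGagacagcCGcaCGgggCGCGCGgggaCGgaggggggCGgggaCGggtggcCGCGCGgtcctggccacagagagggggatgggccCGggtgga
3′ of Nr2f2, chr7:70350953-70351252: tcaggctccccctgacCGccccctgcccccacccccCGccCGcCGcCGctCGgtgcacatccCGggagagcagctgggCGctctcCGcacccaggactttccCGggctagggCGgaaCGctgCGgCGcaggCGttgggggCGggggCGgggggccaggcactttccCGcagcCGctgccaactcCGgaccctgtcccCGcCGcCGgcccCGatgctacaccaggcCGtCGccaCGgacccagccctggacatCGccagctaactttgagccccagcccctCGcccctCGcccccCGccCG
Upstream of Nr2f1 (nearer), chr13:78200444-78200743: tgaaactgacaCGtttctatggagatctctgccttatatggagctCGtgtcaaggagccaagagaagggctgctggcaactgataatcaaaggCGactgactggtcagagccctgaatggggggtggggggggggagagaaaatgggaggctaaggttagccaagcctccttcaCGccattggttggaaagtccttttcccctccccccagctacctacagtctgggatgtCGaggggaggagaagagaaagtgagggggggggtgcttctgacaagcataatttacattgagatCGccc
Upstream of Nr2f1 (farther), chr13:78203517-78203816: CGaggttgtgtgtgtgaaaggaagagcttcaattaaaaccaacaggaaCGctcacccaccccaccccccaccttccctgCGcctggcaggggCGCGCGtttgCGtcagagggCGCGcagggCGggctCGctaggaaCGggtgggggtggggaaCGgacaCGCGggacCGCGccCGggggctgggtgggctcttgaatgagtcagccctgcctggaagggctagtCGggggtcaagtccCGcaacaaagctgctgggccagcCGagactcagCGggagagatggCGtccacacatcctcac

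The 11 windows within 50 kb of Nr2f2 held 5 to 42 CpG dinucleotides, with a median of 15. The 16 windows within 50 kb of Nr2f1 held 1 to 30, with a median of 10. Among the 4 shown, the intronic window of Nr2f2 held 42 and the 3′ window 32, whereas those upstream of Nr2f1 held 6 (nearer) and 23 (farther). Over the middle 300 bases of all 33083 elements of the Ctr-OPC table the median was 4, with quartiles of 2 and 7. The other windows inside Nr2f2 held 41, 33 and 10. Of all Ctr-OPC windows, 0.623% held more CpG than the intronic window of Nr2f2. The GC content was 73.3% in that window and 76.7% in the 3′ window, beside a median of 51% over all elements. It was 50% in the Nr2f2 window with 10 CpG, and ranged from 39.3% to 78.3% over the 11 windows.

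Few simple motifs matched. The hexamer AGGTCA, the unit of nuclear receptor sites, searched on both strands, was in 1 of 11 windows within 50 kb of Nr2f2 and in 2 of 16 around Nr2f1, and in 16.7% of all Ctr-OPC windows. The interferon-stimulated element GAAANNGAAA was in 0 of these 27 windows, and in 3.07% of all windows. The E-box CAGCTG was in 3 windows at Nr2f2 and 1 at Nr2f1, and in 26.3% of all. The SOX core AACAAT was in 0 and 3 windows, and in 11.0% of all. These counts describe letters in the middle 300 bases and say nothing of a factor's binding.

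**Figure D1:**
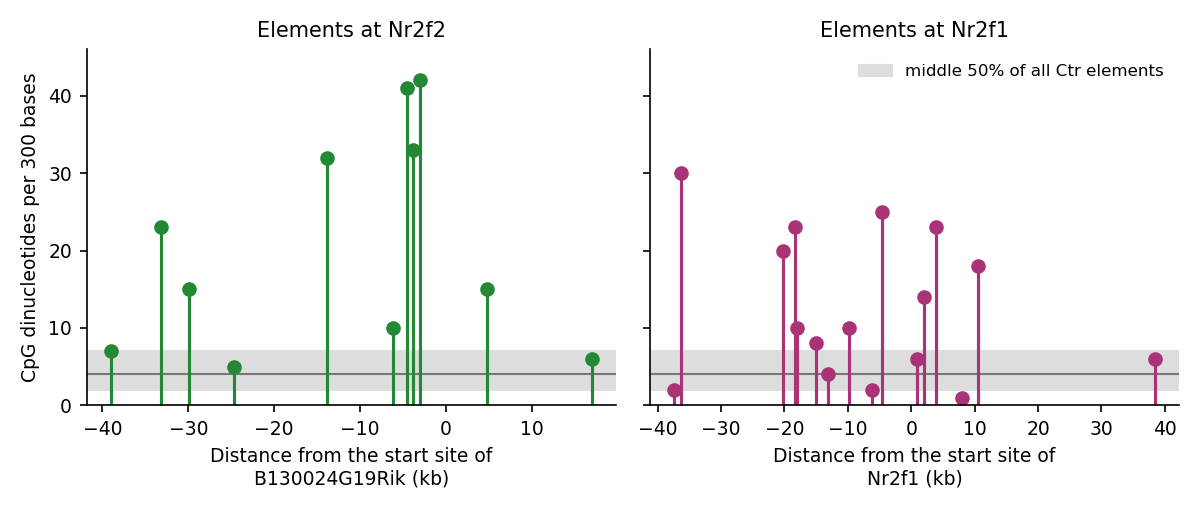
CpG dinucleotides in the middle 300 bases of each element within 50 kb of Nr2f2 (left) and Nr2f1 (right), against distance in kb from the start of B130024G19Rik or Nr2f1. The grey band spans the quartiles (2 to 7) and the line the median (4) of all Ctr-OPC elements; the elements of Nr2f2 reach 42 and those of Nr2f1 30.

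Nr2f2 itself, the gene for COUP-TFII, was listed as a target in neither table. It shares this with 7037 of 21951 protein-coding genes of the annotation (32.1%). Which limit it missed, the promoter quantile or the lowest score, was not tested. Elements inside and around Nr2f2 were nevertheless listed in both tables with other targets, and these are described next.

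Inside Nr2f2 the Ctr-OPC table held 4 elements and that of IFN-γ-OPCs held 3. The most active lay in an intron, at chr7:70361650-70362149, with an activity of 2.32 in Ctr-OPCs and 2.09 with IFN-γ. The annotation has a shorter protein-coding transcript of Nr2f2 that starts at 70360593, and this element begins 1057 bp upstream of that internal start. The element across the internal start itself, at chr7:70359983-70360663, had an activity of 1.16 in Ctr-OPCs and 0.750 with IFN-γ. Another one, at chr7:70358100-70359288 across a coding exon, had 1.50 and 1.31. The intronic element at chr7:70360778-70361277, which begins 185 bp upstream of the internal start, had 0.873 in Ctr-OPCs and no overlapping element with IFN-γ. All 3 elements found in both tables were thus less active in IFN-γ-OPCs, with log2 ratios of -0.15, -0.63 and -0.19. The first was 500 bp wide in each table, but the one across the internal start was 681 bp wide in Ctr-OPCs and 500 bp with IFN-γ, and that across the coding exon 1189 bp and 500 bp, so the latter ratios compare regions of unequal width.

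Outside the gene, the element 3′ of Nr2f2 at chr7:70350853-70351352 had the lowest ratio at this locus, with 1.68 and 0.889 (log2 ratio -0.92). The element in an intron of B130024G19Rik at chr7:70368774-70370521, upstream of Nr2f2, had nearly equal values of 0.932 and 0.968. Within 50 kb either side of Nr2f2 there were 11 elements in Ctr-OPCs with a summed activity of 11.3, and 7 in IFN-γ-OPCs with 7.43. Of the 7 present in both, 5 were less active in IFN-γ-OPCs, and the median log2 ratio was -0.15. Over the 2 with a connection in both tables the median was -0.54, and the 3 of equal width in both were all lower, beside 56.4% of such elements in the whole tables. Over all 19332 elements matched between the tables, 57.9% were less active in IFN-γ-OPCs and the median was -0.08, and 58.4% of all Ctr-OPC elements had a match. The SD of the log2 ratio over all matched elements was 0.51. The median over every element of a table was 0.866 in Ctr-OPCs and 0.803 with IFN-γ (log2 ratio -0.11). After division by these medians the ratio at Nr2f2 was -0.043, with 4 of the 7 elements lower, beside 0.024 over all matched elements. The 3 elements inside Nr2f2 and the one 3′ of it stayed lower.

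**Figure D2:**
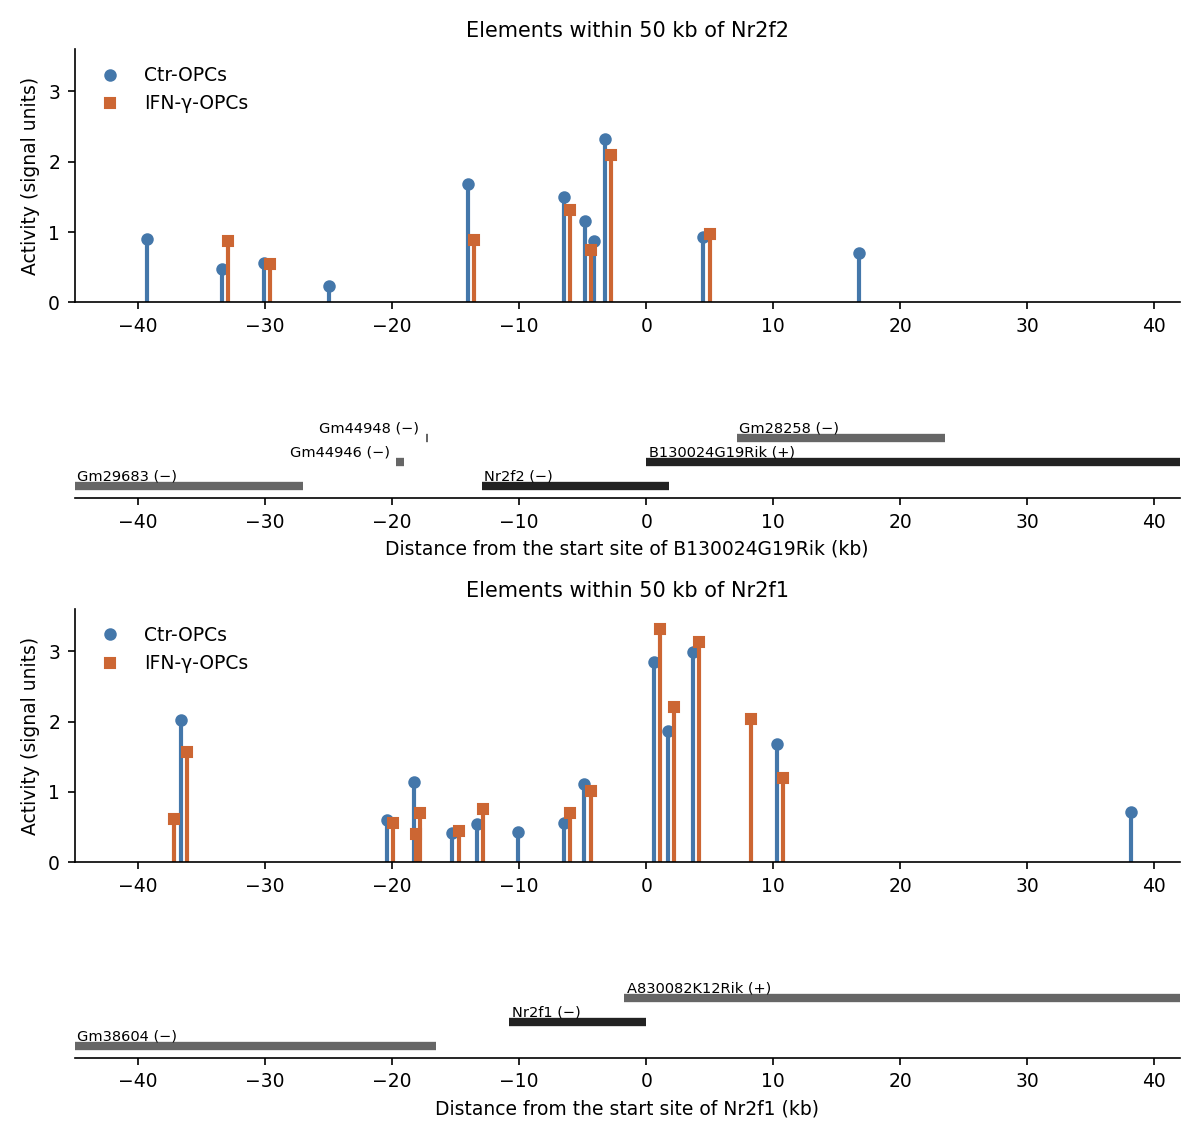
Activity in signal units (vertical lines, Ctr-OPCs as circles and IFN-γ-OPCs as squares, drawn slightly apart) of every element within 50 kb of Nr2f2 (upper) and Nr2f1 (lower), against distance in kb from the start of B130024G19Rik or Nr2f1, with gene bodies and strands under each panel. At Nr2f2 the highest values are 2.32 and 2.09 inside the gene, and at Nr2f1 the elements just upstream reach 2.99 and 3.32.

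B130024G19Rik, the antisense transcript, had 5 connections in Ctr-OPCs and was not listed with IFN-γ. Its highest score was with the most active Nr2f2 intron element, at 0.141. The elements over the coding exon and over the internal start of Nr2f2 followed at 0.0718 and 0.0701. The element in its own intron had 0.0564 and the second intronic element 0.0528. Of its 5 connected elements 4 therefore lay inside Nr2f2, all within 6.22 kb of its start. The element 3′ of Nr2f2 was the highest below the cut-off, at 0.0378, and one at 295 kb, chr7:70660142-70660641, had 0.0207. Together the 7 listed pairs made up 45.0% of its gene total of 0.720.

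A count of 5 is near the top of the Ctr-OPC table, in which no gene had over 7 connections and 25 of 8850 genes with a connection had at least 5 (0.282%). Of these 25 genes, 5 had no connection in IFN-γ-OPCs (20%). More widely, 21.2% of all genes listed in Ctr-OPCs were absent from the IFN-γ-OPC table. The promoter quantile of B130024G19Rik in Ctr-OPCs was 0.584, below the median of 0.688 over listed genes, and 25.1% of genes with a quantile from 0.55 to 0.6 were absent from the other table. These shares stand as background only, since the gene was chosen by this contrast. Its promoter quantile in IFN-γ-OPCs is unknown from the tables, and which limit it missed was not tested.

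Most elements that B130024G19Rik was connected with stayed in the table. Of the 5, 4 were listed in IFN-γ-OPCs with other targets, chiefly the noncoding genes Gm44946 and Gm44948, which start 3′ of Nr2f2 and share a bin. For Gm44948 the score of the most active Nr2f2 intron element was 0.0654 in Ctr-OPCs and 0.0840 with IFN-γ. Its activity was lower (log2 ratio -0.15) and its adjusted contact with that bin higher (0.53). The element 3′ of Nr2f2 went the other way for Gm44948, from 0.110 to 0.0666, with the activity ratio of -0.92 and a contact ratio of 0.22. The coding-exon element was above the cut-off for it in Ctr-OPCs alone, at 0.0551 and 0.0456. Scores for Gm44946 were equal to these at 3 decimals, so each of the 2 genes had 3 connections in Ctr-OPCs and 2 with IFN-γ. They are 1 measurement of contact and not independent.

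**Figure D3:**
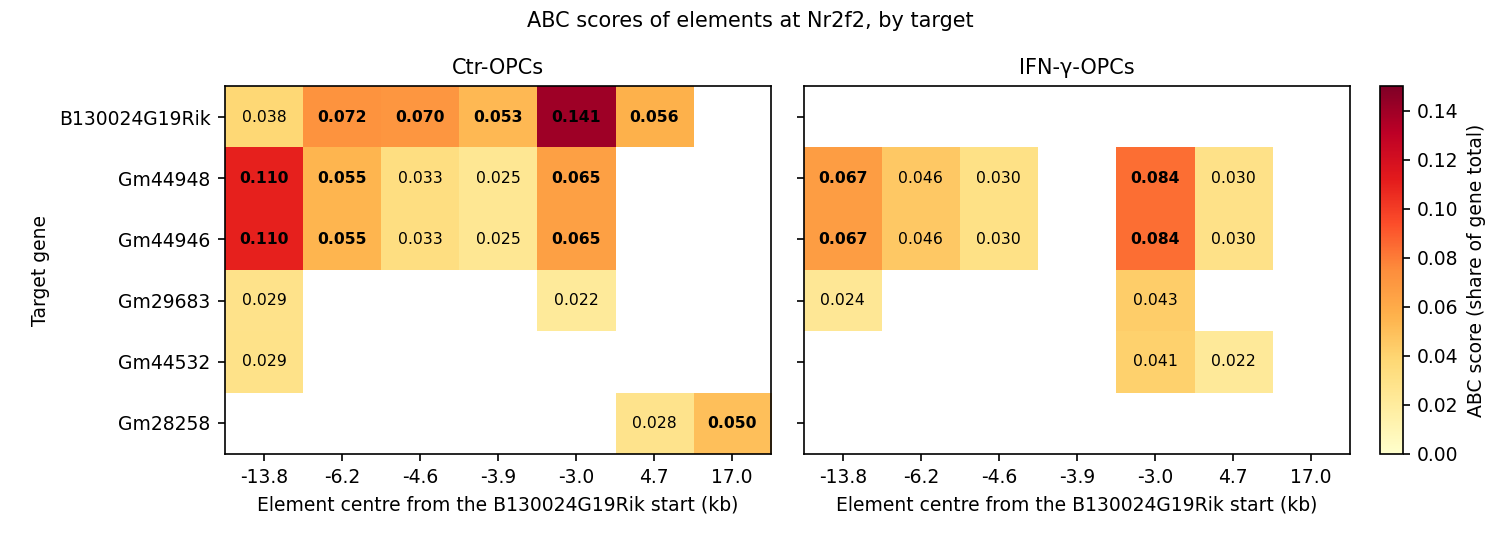
ABC score (share of the gene total, colour and number, bold above 0.05) of each element from the one 3′ of Nr2f2 onward (columns, by kb of the Ctr-OPC element's centre from the B130024G19Rik start) for 6 target genes (rows), in Ctr-OPCs (left) and IFN-γ-OPCs (right). Blank cells were not listed. The B130024G19Rik row reaches 0.141 in Ctr-OPCs and is blank with IFN-γ, while the Gm44946 and Gm44948 rows hold scores in both.

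The whole 50 kb window around Nr2f2 gave 13 connections to 5 genes in Ctr-OPCs and 4 connections to 2 genes with IFN-γ. Of the 13, 5 belonged to B130024G19Rik and 1 to Gm28258, which were not listed with IFN-γ. Over the whole tables there were 11648 connections in Ctr-OPCs and 12410 with IFN-γ. Elements inside Nr2f2 alone gave 8 connections in Ctr-OPCs and 2 with IFN-γ, of which 4 of the 8 were with B130024G19Rik. Of the other targets, Gm29683, a noncoding gene farther 3′, had a connection with an element in its own body in Ctr-OPCs alone, at 0.0681 and 0.0210, with a near-equal activity of 0.558 and 0.544 and a contact of 0.0592 and 0.0167. Gm28258, which overlaps B130024G19Rik on the other strand, had its connection in Ctr-OPCs at 0.0501. Gm44532, which lies inside B130024G19Rik, had 1 connection in each table with an element outside this window, at 0.0953 and 0.0792. Within 1 Mb of the Nr2f2 start, 19 target genes with 17 connections were listed in Ctr-OPCs and 14 with 6 with IFN-γ. The 17 include the 5 of B130024G19Rik, whose count was part of the choice of genes. All these counts take Gm44946 and Gm44948 separately, although they are 1 measurement of contact. All targets named here are noncoding genes.

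Nr2f1, the gene for COUP-TFI, had 4 connections in each table, with the same 4 elements. Its promoter quantile was 0.860 in Ctr-OPCs and 0.854 with IFN-γ, above the median of listed genes in both. The element at chr13:78200344-78200843, in an exon of A830082K12Rik and 0.836 kb upstream of the Nr2f1 start, scored 0.0901 in Ctr-OPCs and 0.0821 with IFN-γ. The one at chr13:78203417-78203916 scored 0.0946 and 0.0774, and the one between them, at chr13:78201475-78201974, scored 0.0591 and 0.0547. Both lie in an intron of A830082K12Rik. The only connected element inside Nr2f1, at chr13:78194877-78195376 over coding sequence, scored 0.0567 and 0.0678. The 3 upstream elements were thus lower and the one inside the gene higher in IFN-γ-OPCs, and none crossed the cut-off.

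Activity and contact differed in opposite directions for these 4 elements. The upstream elements were more active in IFN-γ-OPCs, at 2.84 and 3.32 for the nearest, 1.87 and 2.21 for the next, and 2.99 and 3.13 for the farthest (log2 ratios of 0.22, 0.24 and 0.07). Their adjusted contact, which is 1 value since they share a bin, was 0.0193 in Ctr-OPCs and 0.0168 with IFN-γ (-0.20). Inside the gene the activity was 1.11 and 1.01, and the adjusted contact 0.0313 and 0.0454 (0.54). The intronic element of Nr2f1 at chr13:78193249-78193748 carried that same contact. It lies in the neighbouring bin, whereas the element over coding sequence is centred in the bin of the start itself. Their contacts are therefore not separate readings. The intronic element had an activity of 0.563 and 0.700, and scored 0.0288 and 0.0469, the latter the highest value of Nr2f1 below the cut-off. The lowest above it was 0.0547.

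Over the 6 pairs of Nr2f1 listed in both tables, activity was higher in IFN-γ-OPCs in 5 and adjusted contact in 3. The median log2 ratios were 0.23 for activity, -0.00493 for contact and 0.07 for the score. Over all 29858 matched pairs they were -0.09, 0.05 and 0.02, and activity was higher in IFN-γ-OPCs in 40.1% and adjusted contact in 54.6%. The gene total of Nr2f1, the sum of which each score is a share, was 0.610 in Ctr-OPCs and 0.679 with IFN-γ (log2 ratio 0.15). Over genes listed in both tables the median log2 ratio was -0.07 with an SD of 0.19, 35.7% had a higher total in IFN-γ-OPCs, and 13.7% exceeded the ratio of Nr2f1.

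**Figure D4:**
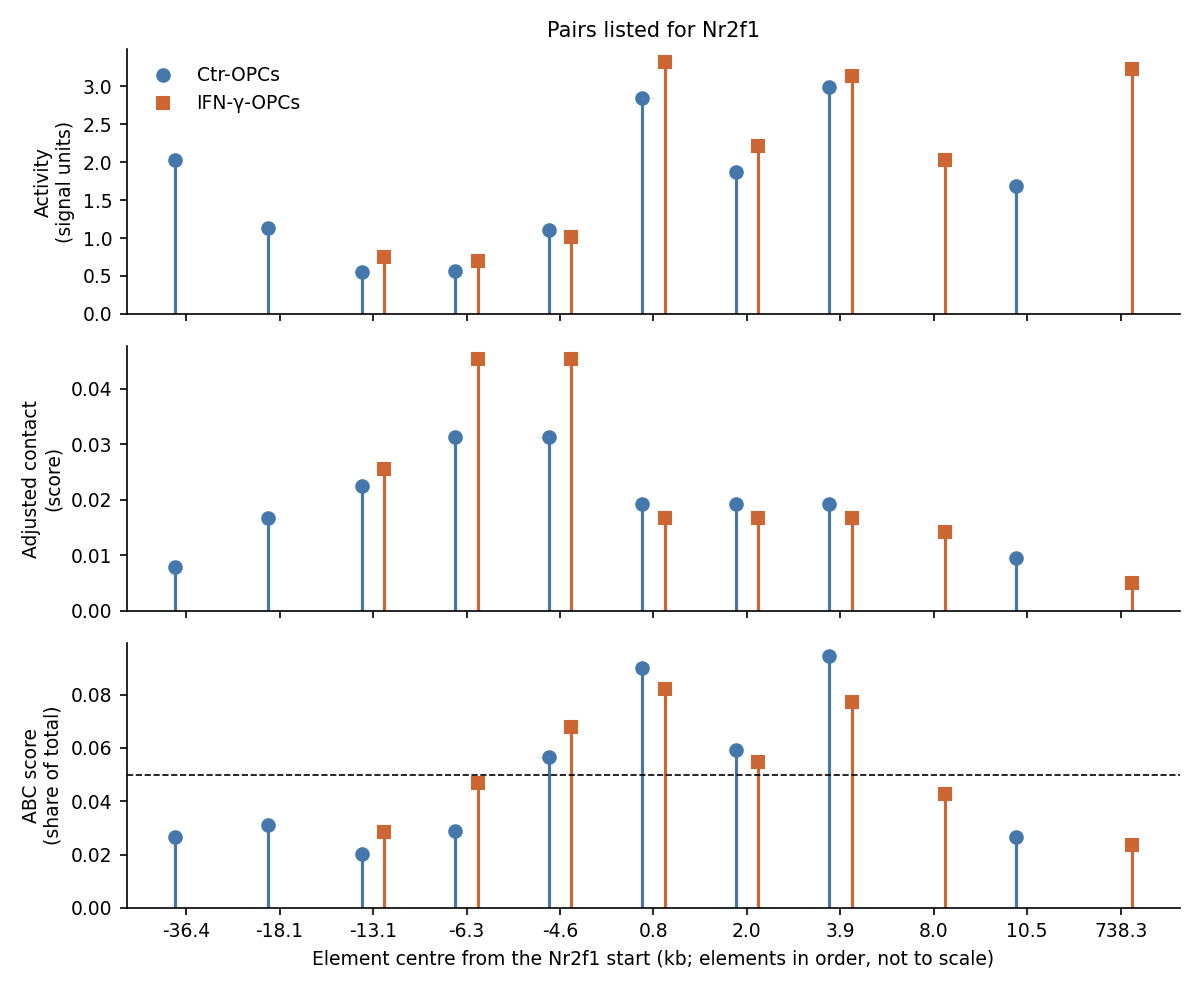
Activity (top, signal units), adjusted contact (middle, score) and ABC score (bottom, share of the gene total, dashed line at 0.05) of every pair listed for Nr2f1 in Ctr-OPCs (circles) and IFN-γ-OPCs (squares), by element in order of position with kb from the Nr2f1 start as labels. The 4 elements above 0.05 are the same in both conditions; for the 3 of them upstream of the start, activity is higher and contact lower in IFN-γ-OPCs.

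Of the pairs of Nr2f1 below the cut-off, most were listed in 1 table only. In all, 9 pairs were listed in Ctr-OPCs and 8 with IFN-γ, making up 43.4% and 42.3% of its gene total. Listed for it in Ctr-OPCs alone were elements at chr13:78163030-78163690 (score 0.0264), chr13:78181088-78182282 (0.0312) and chr13:78209838-78210698 (0.0265). All 3 overlapped narrower elements in IFN-γ-OPCs, with activities of 1.57 beside 2.03, 0.702 beside 1.14 and 1.20 beside 1.68. For the one at 78181088 a second piece of 500 bp, at chr13:78181121-78181620, was listed apart in IFN-γ-OPCs with 0.397. Listed in IFN-γ-OPCs alone were an element at chr13:78207353-78208200, with an activity of 2.03 and a score of 0.0425, and a distant one at chr13:78937853-78938352. The latter, 738 kb away, had an activity of 3.92 in Ctr-OPCs and 3.22 with IFN-γ, and a score of 0.0236 for Nr2f1. By the power law of distance alone its score was 0.00220.

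Within 50 kb of Nr2f1 there were 13 elements with a summed activity of 16.9 in Ctr-OPCs and 14 with 18.6 in IFN-γ-OPCs, and 14 connections in each. Elements within 10 kb gave 14 connections in Ctr-OPCs and 11 with IFN-γ, and those within 500 kb gave 17 and 16. The targets that start within 1 Mb, counted with all their elements, had 17 and 22. Of the 11 matched elements within 50 kb, 6 were more active in IFN-γ-OPCs, with a median log2 ratio of 0.07, and 7 of 11 with a median of 0.17 after division by the table medians. The 30 matched pairs of this window had a median log2 ratio of 0.16 for adjusted contact and -0.03 for the score, and the 13 of the Nr2f2 window 0.38 and -0.12. Many of these pairs share an element or a bin, so they are not independent, and the difference between the loci was not tested.

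**Figure D5:**
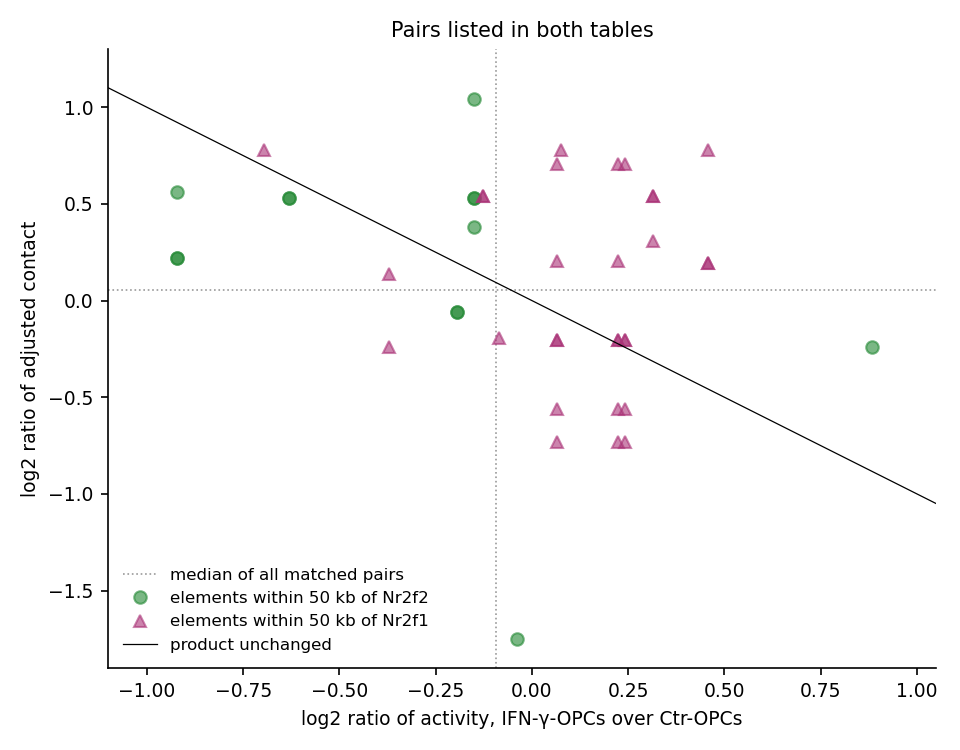
Change in activity (log2 of IFN-γ-OPCs over Ctr-OPCs, horizontal) against the same for adjusted contact (vertical), for the 13 pairs with an element within 50 kb of Nr2f2 (circles) and the 30 within 50 kb of Nr2f1 (triangles) listed in both tables. Dotted lines are the medians of all matched pairs (-0.09 and 0.05) and the solid line marks an unchanged product; 9 of the 13 Nr2f2 points and 4 of the 30 Nr2f1 points lie at lower activity and higher contact, beside 35.5% of all matched pairs, and darker points are pairs that coincide.

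Other targets shared elements with Nr2f1. A830082K12Rik was connected with the same 4 elements at scores equal to those of Nr2f1 at 3 decimals, since both starts fall in 1 bin (share of common elements, as intersection over union of connected elements of either table, 1). Gm18990, a processed pseudogene, had 2 connections in Ctr-OPCs and 0 with IFN-γ, and a share of 0.5. Gm38604, an antisense gene 3′ of Nr2f1, had 3 and 2 connections and a share of 0.333. Gm32067 had 1 connection from this locus in Ctr-OPCs and none with IFN-γ, and 3110006O06Rik, listed in IFN-γ-OPCs alone, had 3 connections, 2 of them from this 50 kb window at 0.0809 and 0.0735. At chr13:78163209-78163708, an element 3′ of Nr2f1, Pou5f2 (0.109) and Gm48254 (0.0744) were above the cut-off in IFN-γ-OPCs alone. For B130024G19Rik the most alike genes were Gm44946 and Gm44948, at 0.333 each.

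Of 12779 genes with a connection in either table, 32.5% had fewer and 37.4% more in IFN-γ-OPCs, and the rest an equal count as Nr2f1 did.

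The other nuclear receptors were described with the same values. Of 46 receptor genes listed for this purpose, 40 were targets in either table, with 23 connections in Ctr-OPCs and 21 with IFN-γ. Connections were more in 5, fewer in 9 and equal in 8 of those with any. The closest relative, Nr2f6 (EAR2), had 0 in both. Of the RXR genes, whose products pair with many receptors and are competed for by COUP-TFs, Rxrb had 1 in each condition and Rxra and Rxrg had 0. A change of at least 2 was seen for Hnf4g alone, with 0 connections in Ctr-OPCs and 3 with IFN-γ.

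Gene totals of the receptors were mostly lower in IFN-γ-OPCs, in 26 of the 31 listed in both tables, with a median log2 ratio of -0.12, beside 64.3% lower and a median of -0.07 over all genes. The highest ratios were those of Esr1, the estrogen receptor α gene (0.52), Rxrb (0.22) and Rorb (0.08), and the ratio of Nr2f1 (0.15) lay between those of Rxrb and Rorb. The lowest were those of Nr4a3 (-0.36), the mineralocorticoid receptor gene Nr3c2 (-0.35) and the clock repressor gene Nr1d1 (-0.34).

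Of 21 genes for partners of COUP-TF receptors, 19 were listed in either table, with 12 connections in Ctr-OPCs and 10 with IFN-γ. Connections were fewer in 2 of them, Bcl11a, which encodes the COUP-TF-interacting protein CTIP1 (3 and 2), and Nrip1 (1 and 0), and more in 0. They were equal in 7 others with any, and 12 of the 21 genes had none in either condition. Over all genes with a connection in either table, 32.5% had fewer and 37.4% more. Of 17 totals measured in both, 14 were lower, with a median log2 ratio of -0.10, beside the same 64.3% and -0.07 over all genes. The lowest were those of Zfpm2, the FOG2 cofactor gene (-0.47), Sin3a (-0.30) and Zfpm1 (-0.30), and the highest those of Tbl1xr1 (0.21), Ncoa1 (0.15) and Ncoa2 (0.02).

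The labels were checked on marker genes. All 10 OPC and oligodendrocyte lineage genes were listed in both tables, with a median promoter quantile of 0.928 in Ctr-OPCs and 0.923 with IFN-γ. IFN-γ response genes had 0 connections in Ctr-OPCs and 8 with IFN-γ. Of 10 endothelial markers, which are relevant because COUP-TFII marks veins, 5 were listed in Ctr-OPCs and 8 with IFN-γ, with median quantiles of 0.620 and 0.624 and with 1 and 3 connections. Of 8 pericyte and fibroblast markers 7 and 5 were listed, with medians of 0.618 and 0.668 and no connection. Of 10 microglia markers 5 and 7 were listed, with medians of 0.672 in Ctr-OPCs and 0.684 with IFN-γ, and 2 and 0 connections. Of 9 neuron markers 8 and 9 were listed, with 0.656 and 0.622 and 4 and 3 connections. Of 7 astrocyte markers 6 were listed in each condition, with 0.741 and 0.772 and 4 and 6 connections. Each median covers only the markers listed in that condition. Markers not listed are left out, and the genes behind a median can differ between conditions. The part of other cells in the elements at Nr2f2 was not tested, and fewer cells of a type cannot be told apart from less signal per cell.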

How the data were processed

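H3K27ac HiChIP was measured in 6 libraries of mouse OPCs, 3 per condition. The authors aligned reads to mm10 with HiC-Pro and ran the ABC model per condition, with coverage from ATAC-seq and from CUT&RUN for H3K27ac, pooling libraries. The deposited activity is a signal. The deposited ABC score, power-law score and promoter quantile are fractions. Contact, adjusted contact (with the model's pseudocount) and their product with activity were deposited as score values without fixed range, and the distance to the start site in bp. Scaling between conditions is not given in the sources used here, nor is the ABC version. Depth is unknown, and replicates could not be compared.

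Symbols came from GENCODE M21, whose gene start equalled the deposited one for 99.2% of Ctr-OPC targets and 99.3% of IFN-γ-OPC targets. Sequences came from RefSeq GRCm38.p6, the same build. All 3 genes matched the promoter table, which was not printed. Elements and pairs were matched when each was the other's best overlap of at least 1 bp. The gene total was the product divided by the score, as the median over the gene's pairs. Genes were named if they were the members, targets above 0.05 of elements within 10 kb of them, genes that share a connected element, or, from the receptor and partner lists, Nr2f6, the RXR genes, those with a change of at least 2 connections and the 3 highest and 3 lowest ratios of the total. Bcl11a, Nrip1, Gm29683, Pou5f2 and Gm48254 were added once their values had been seen. The members and lists were chosen with earlier results of these data known. The matching was tested on a shifted copy of the Ctr-OPC values with some activities changed. Element widths were kept, so the test did not cover elements that differ in width or are split. Scripts ran in Python 3.11.15 with pandas 2.3.3, NumPy 2.4.6 and matplotlib 3.10.9, and positions count from 1.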

Additional observations from a re-analysis of the deposited data

How the results depend on the processing

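No paired analysis was possible because each condition has 1 pooled table, and for the same reason no replicate could be left out. The absence of B130024G19Rik in IFN-γ-OPCs and of Nr2f2 in both held under every planned setting, which cannot add genes that the tables leave out. Over all deposited pairs Nr2f1 had 9 in Ctr-OPCs and 8 with IFN-γ. Above 0.1 it had 0 in both, and B130024G19Rik kept 1 in Ctr-OPCs. Its summed score over connections was 0.392, and that of Nr2f1 0.300 and 0.282. The median activity ratio near Nr2f2 was -0.54 over elements with a connection and -0.043 after division by each table's median, and near Nr2f1 0.17 after that division and 0.011 within 500 kb. The Nr2f2 window held 6 elements in Ctr-OPCs and 5 with IFN-γ at 10 kb, and 15 and 10 at 500 kb. Elements with a connection numbered 8 in Ctr-OPCs and 2 with IFN-γ near Nr2f2, and 5 and 8 near Nr2f1. None of the medians and counts recomputed for the members and their loci changed sign, but the division took the number of less active elements from 5 to 4 at each locus, and the median over all matched elements from -0.08 to 0.024. Restriction to elements of equal width, chosen after seeing the data, gave -0.15 near Nr2f2 and 0.08 near Nr2f1.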
